A study of Mus musculus with 12 samples.

Results

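Dsp, Camkv, Ppm1e, Ninl, Cenpv, Clip4, Chn1, Tulp4, Fam169a and Glcci1 are 10 genes whose RNA stood higher in Ezh2-mutant than in Ezh2 wild-type blood progenitors of the mouse. They were chosen by their measured levels in that comparison, on the arrays described here, so their difference between Ezh2 genotypes is given as a description and without a test. All 10 were found among the 20284 genes named on the array, and all 10 were among the 13712 genes tested. They had been proposed as genes of other tissues that are silent in normal blood cells, and signal on Ezh2 wild-type arrays goes against this for 5 of them. Cenpv and Glcci1 lay well above background on all 12 arrays, Ezh2 wild-type arrays included. Dsp, Camkv and Ppm1e did so on 1 or 2 of the 4 Ezh2 wild-type arrays, and Ninl, Tulp4, Fam169a, Clip4 and Chn1 on Ezh2-mutant arrays only. The set is therefore named here by its rule, as the 10 genes that were higher in Ezh2-mutant progenitors.

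RNA from 2 bone marrow fractions of recipient mice, repopulated by transplanted fetal liver cells on a C57BL/6 background, was hybridised to 12 one-colour Agilent arrays. LSK cells lack lineage markers, carry Sca-1 and c-Kit, and include the stem cells and multipotent progenitors. Granulocyte-macrophage progenitors (GMPs) are their committed myeloid descendants. Each fraction gave 1 array for each of 6 conditions. These were wild-type cells (WT), Tet2KD/KD cells (a hypomorphic Tet2 knockdown allele on both chromosomes, Ezh2 wild-type), Ezh2-/- cells (Ezh2-null, Tet2 wild-type), Tet2KD/KDEzh2-/- cells (double mutant), and double mutant cells from animals with a myelodysplastic/myeloproliferative neoplasm (MDS/MPN) or with refractory anaemia with excess blasts (RAEB). The 2 Ezh2 wild-type arrays of each cell type are therefore WT and Tet2KD/KD, and the 4 Ezh2-mutant arrays are Ezh2-/-, double mutant, MDS/MPN and RAEB. The labels give no ages, no number of mice behind an array, no way by which Ezh2 was removed and no share of host cells left in the marrow. No condition was repeated within a cell type, so SDs and p-values below measure the spread between arrays of different conditions and not between mice. In sorted bulk RNA, fewer cells with a transcript and less transcript per cell cannot be told apart.

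Ezh2 is the catalytic subunit of Polycomb repressive complex 2 (PRC2), which methylates lysine 27 of histone H3 and so keeps developmental genes silent in cells of the wrong lineage. PRC2 acts mostly at promoters rich in CG dinucleotides that are free of DNA methylation, and its relative Ezh1 can carry part of the same activity. Tet2 oxidises methylated cytosine and takes part in the removal of DNA methylation. Loss-of-function mutations of both genes occur in human myeloid neoplasms. The 10 genes encode proteins with little in common. Dsp makes the desmosome anchor desmoplakin, Camkv and Ppm1e belong to calcium/calmodulin kinase biology, Ninl, Cenpv and Clip4 to microtubules and chromosomes, and Chn1, Tulp4, Fam169a and Glcci1 to other families.

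As PRC2 targets are often CG-rich promoters, the 250 bases before each gene's start were taken from RefSeq (GRCm38.p6), which listed a window for all 10 genes. The window with the most CG was used where a gene had several. Below are 4 of them, 5′ to 3′ on the strand of the gene, with CG dinucleotides in capitals: Dsp (chr13:38151044-38151293, plus strand), whose brightest probe had the largest difference between Ezh2 genotypes with the scanner's background correction, though not with normexp or with the mean of probes; Fam169a (chr13:97071393-97071642, plus strand), the densest in CG of the 10; Cenpv (chr11:62539262-62539511, minus strand), a gene well above background on all arrays; and Clip4 (chr17:71781697-71781946, plus strand), the poorest in CG.
Dsp: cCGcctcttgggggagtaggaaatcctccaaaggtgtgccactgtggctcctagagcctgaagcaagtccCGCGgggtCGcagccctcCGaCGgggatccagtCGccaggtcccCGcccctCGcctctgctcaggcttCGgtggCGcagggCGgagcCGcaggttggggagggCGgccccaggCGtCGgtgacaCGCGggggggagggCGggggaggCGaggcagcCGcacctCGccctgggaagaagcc
Fam169a: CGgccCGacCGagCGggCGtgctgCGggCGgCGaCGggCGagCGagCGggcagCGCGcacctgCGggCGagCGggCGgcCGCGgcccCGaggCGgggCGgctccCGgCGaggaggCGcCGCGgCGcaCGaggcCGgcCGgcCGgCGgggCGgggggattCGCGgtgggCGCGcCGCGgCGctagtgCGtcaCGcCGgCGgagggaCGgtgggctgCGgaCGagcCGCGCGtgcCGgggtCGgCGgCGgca
Cenpv: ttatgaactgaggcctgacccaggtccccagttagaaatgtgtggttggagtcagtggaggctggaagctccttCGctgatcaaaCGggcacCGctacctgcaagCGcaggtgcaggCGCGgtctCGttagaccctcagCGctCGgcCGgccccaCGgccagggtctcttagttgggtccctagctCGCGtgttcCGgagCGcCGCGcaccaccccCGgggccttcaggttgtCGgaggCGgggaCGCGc
Clip4: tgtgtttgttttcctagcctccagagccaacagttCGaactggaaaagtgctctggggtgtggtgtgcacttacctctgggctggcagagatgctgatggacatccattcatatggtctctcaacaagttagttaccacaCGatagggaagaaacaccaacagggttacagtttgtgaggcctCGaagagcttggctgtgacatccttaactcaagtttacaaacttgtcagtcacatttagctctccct

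The capitals run through the Fam169a window from end to end, with 56 CG dinucleotides. The Dsp and Cenpv windows hold 22 each, with a long stretch free of CG near their 5′ ends, and the Clip4 window holds 3. Over the 10 genes the median was 26.5 CG dinucleotides and 72% G or C. The 10985 tested genes with a window had medians of 16 CG dinucleotides and 60% G or C. Of the other windows, Tulp4 and Glcci1 each held 40 CG dinucleotides, Ppm1e 32, Chn1 31, Camkv 18 and Ninl 9. Ninl and Clip4 thus lay below the median of the tested genes and the other 8 above it. These are descriptions of windows and not tests, and PRC2 or histone marks were not measured on these arrays.

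**Figure D1:**
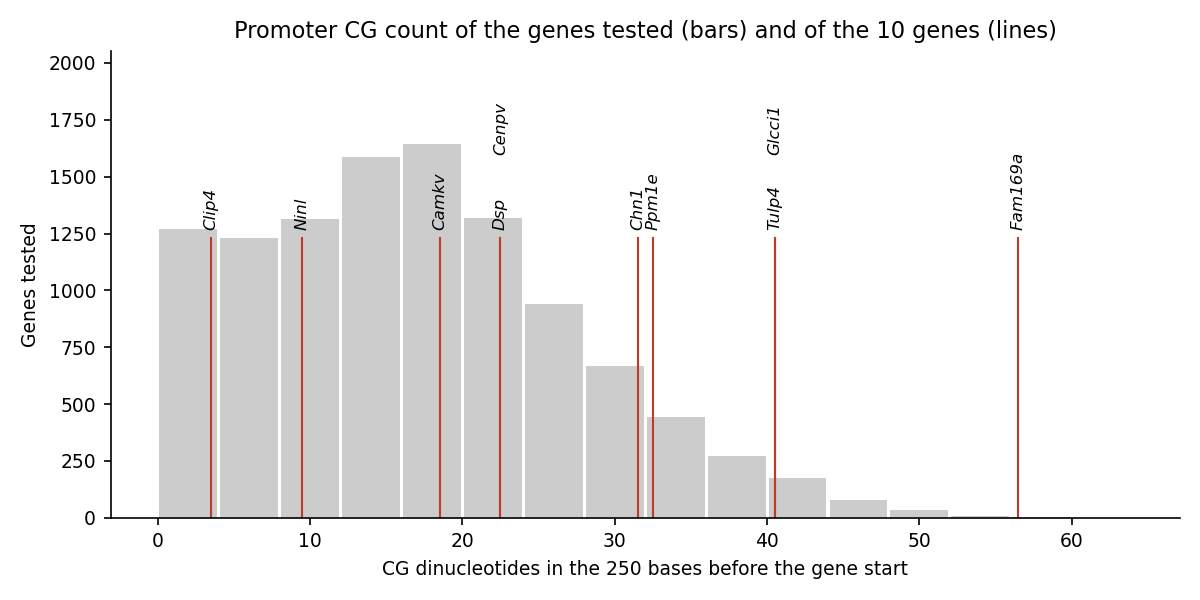
Number of CG dinucleotides in the 250 bases before the start of each gene (RefSeq windows, GRCm38.p6). Bars count tested genes in steps of 4 dinucleotides, and each red line marks 1 of the 10 genes, from Clip4 with 3 to Fam169a with 56.

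Short motifs were searched in the same windows on both strands. GGGCGG, the core of an Sp1 site, was found in 7 of the 10 windows (all but Cenpv, Clip4 and Glcci1) and in 58.2% of the tested genes. CACGTG, an E-box, was found in the Tulp4 window alone of the 10 and in 8.4% of the tested genes. The core of a TATA box, TATAAA, was in none of the 10 windows and in 6.97% of the tested genes. The first 2 of these motifs each hold a CG, so their counts overlap with the count of CG dinucleotides.

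Levels below are log2 processed signals minus the log2 of the array's own 75th percentile, so that 0 is that percentile and 1 unit is a factor of 2. They are compared within a probe and never between genes. The arrays had 45.6 to 52.3% of their gene spots well above background and no saturated gene spot. All 8 surface and transcription factor markers of LSK cells on a fixed list were lower in GMPs. Of the 10 GMP markers, Mpo, Elane, Fcgr3 and 5 others were higher in GMPs. The other 2, Kit and Cd34, which are on the LSK list as well, were lower. The targeted genes came first. The Tet2 probe stood at 0.44 and 0.12 on the LSK arrays of WT and Ezh2-/- cells, and at -1.61 and -0.79 on those of Tet2KD/KD and double mutant cells. In GMPs the same order gave 1.57 and 1.51 against -0.64 and -1.01, so the groups did not overlap; the difference of -1.92 (SE 0.27) had a limma adjusted p of 0.381 over all genes. The Ezh2 probe read the same in both genotypes, with a difference of 0.01 (SE 0.12, limma adjusted p = 0.995). The position of the probe and the part of Ezh2 that was removed are not known here, so this reading checks nothing about the genotype.

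All 10 genes were above both wild-type arrays on all 4 Ezh2-mutant arrays, in LSK cells and in GMPs. For Fam169a and Chn1 no GMP array was well above background, and the order of values below background is not a measured difference. Of all genes tested, 8.07% showed that order in LSK cells, 10.8% in GMPs and 1.98% in both; since the 10 were selected on this contrast, nothing is read from the comparison of these shares. Ezh2-/- minus WT and double mutant minus Tet2KD/KD were above 0 for all 10 genes in both cell types. This follows from the array order above and adds nothing to it. The lowest was 0.86, for Chn1 in GMPs, where no array was well above background. The mean difference of a gene over both cell types ran from 1.57 (Glcci1) to 3.73 (Dsp), with a median of 2.27 against 0.04 for all genes tested. The sign held under every setting tried, which is no support, as the genes were chosen on this contrast and these arrays. The size did not: with normexp in place of the scanner's own background correction the median was 0.84, and 8 of the 10 differences shrank by more than 1.5 times, all but those of Cenpv and Glcci1, the genes detected on all arrays. With the mean of a gene's probes in place of its brightest, that of Dsp was 1.94, of Clip4 1.4 and of Chn1 1.06.

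**Figure D2:**
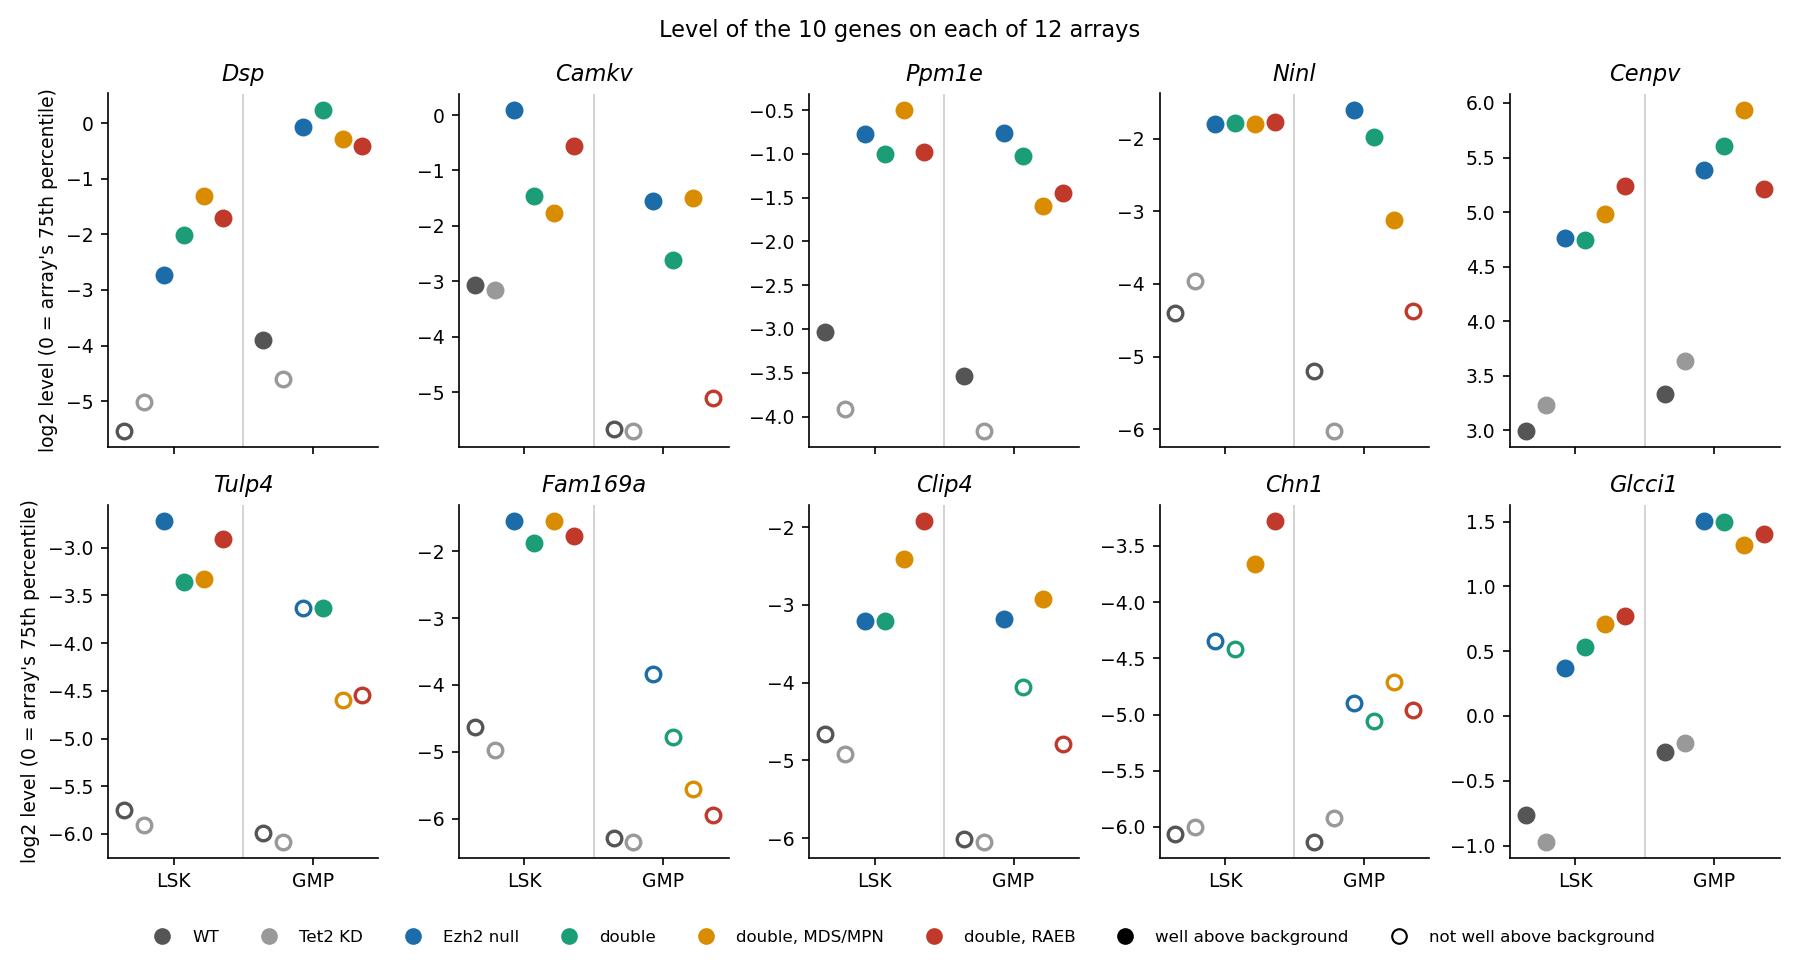
Log2 level of each gene on each of the 12 arrays, relative to the array's 75th percentile; each panel has its own vertical axis. Grey points are Ezh2 wild-type conditions, coloured points Ezh2-mutant conditions, and open points lie not well above background; in every panel the coloured points of a cell type lie above its grey points, and the order among open points is not a measured one.

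Dsp encodes desmoplakin, which ties desmosomes, the spot junctions of epithelia and heart, to intermediate filaments. Its level in LSK cells was -5.53 in WT and -5.02 in Tet2KD/KD, and -2.74 in Ezh2-/-, -2.0 in double mutant, -1.30 in MDS/MPN and -1.71 in RAEB cells. In GMPs it was -3.90 and -4.59 on the wild-type arrays and -0.07, 0.25, -0.29 and -0.41 on the mutant arrays in the same order. The mutant arrays were thus set apart from the wild-type arrays by 2.28 or more in LSK cells and 3.49 or more in GMPs. Neither LSK wild-type array was well above background, so the mean difference of 3.33 there is not a measured size. As a bound, mutant LSK cells held at least 4.4-fold more signal. Here and below such a bound sets the mutant mean against the higher of the dim probe's own signal and the lowest signal among probes well above background on that array. It is given only where all mutant arrays of the cell type were well above background. These bounds hold for the scanner's own background correction and were not worked out with normexp. With normexp the mean differences over both cell types were smaller. They were 1.29 for Dsp, 0.66 for Ninl, 0.62 for Fam169a, 0.37 for Clip4 and 0.29 for Tulp4. In GMPs 1 of the 2 wild-type arrays was measured, and the difference was 4.12. A second Dsp probe never lay well above background, with differences of -0.36 and 0.68, so these results rest on the probe that was detected; it was spotted 10 times per array.

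Desmoplakin needs partners at the desmosome, and these were looked up on a list of 18 junction genes. Of the 18, 9 were not well above background on any array, and 8 were tested. None of the 8 passed the test between Ezh2 genotypes on the 8 arrays without disease (limma, adjusted p under 0.05), and 3 had an unadjusted p under 0.05. The plakophilin gene Pkp2, a direct partner of desmoplakin, differed by 2.71 (SE 0.37, limma adjusted p = 0.0677) and Perp, a desmosomal membrane protein, by 1.1 (SE 0.29, limma adjusted p = 0.285).

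Camkv encodes a pseudokinase of the calcium/calmodulin-dependent kinase family, best known from synapses. In LSK cells its level was -3.06 in WT and -3.15 in Tet2KD/KD, both well above background, and 0.10, -1.45, -1.76 and -0.55 in Ezh2-/-, double mutant, MDS/MPN and RAEB cells. In GMPs it was -5.66 and -5.69 on the wild-type arrays, both not well above background, and -1.55, -2.62, -1.49 and -5.11 on the mutant arrays. The GMP array of RAEB was the exception: like the wild-type arrays it was not well above background, so no difference was measured there. The differences of means were 2.19 in LSK cells and 2.98 in GMPs, the latter with no bound because of the RAEB array. Without RAEB and MDS/MPN the differences were 2.43 and 3.59. Over 11 tested members of a list of 13 CaM kinase genes the median Ezh2 difference was -0.03 and 0 passed (limma; 1 had an unadjusted p under 0.05, Camk1d at 0.94, SE 0.29, limma adjusted p = 0.381).

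Ppm1e encodes a protein phosphatase that dephosphorylates CaM kinases and the p21-activated kinases. Its LSK levels were -3.04 and -3.91 in WT and Tet2KD/KD cells, and -0.78, -1.0, -0.49 and -0.98 on the mutant arrays. Its GMP levels were -3.54 and -4.16 against -0.77, -1.03, -1.60 and -1.45. In both cell types the WT array was well above background and the Tet2KD/KD array was not. The differences in the 2 cell types were the most alike of the 10 genes, 2.66 in LSK cells and 2.64 in GMPs. Of 12 tested phosphatase genes of its family, 0 passed between Ezh2 genotypes and 2 had an unadjusted p under 0.05; the largest difference was that of Ppm1l, 0.74 (SE 0.11, limma adjusted p = 0.0881).

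Ninl encodes a ninein-like protein that anchors microtubules at the centrosome. Its LSK levels were -4.40 and -3.96 on the wild-type arrays and -1.81, -1.79, -1.80 and -1.77 on the mutant arrays, the tightest mutant group of the 10 genes (SD 0.014 over 4 conditions). In GMPs the wild-type arrays gave -5.20 and -6.02 and the mutant arrays -1.60, -1.98, -3.12 and -4.37. The GMP values thus spread widely (SD 1.25) while the LSK values were level, and the GMP array of RAEB was again the lowest and not well above background. No wild-type array was well above background, so the LSK difference of 2.39 corresponds to at least 4.72-fold. The GMP difference was 2.84, with no bound because of the RAEB array. A second Ninl probe gave 2.52 and 2.15. Of 12 centrosome genes tested, 11 had differences above 0, yet 0 passed (limma; 1 had an unadjusted p under 0.05) and the median was 0.10. The largest was that of Cep170, 0.46 (SE 0.25, limma adjusted p = 0.714).

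Cenpv encodes centromere protein V, which acts at centromeres and the spindle midzone and can also associate with microtubules. It was well above background throughout, at 3.00 and 3.23 on the LSK wild-type arrays and 4.76, 4.75, 4.98 and 5.24 on the mutant arrays. In GMPs the values were 3.33 and 3.64 against 5.38, 5.61, 5.94 and 5.21. Both groups are measured, so a fold can be given: 3.82-fold over both cell types, from log2 differences of 1.82 and 2.05. Cenpv was also the gene that the choice of background correction moved least. Among 21 tested genes of centromere and chromosomal passenger complex, the median difference was 0.05 and 0 passed (limma; 1 had an unadjusted p under 0.05). Cenpf had the largest difference, -0.68 (SE 0.21, limma adjusted p = 0.393), and was well above background on 2 of the 12 arrays.

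Clip4 belongs to the family of cytoplasmic linker proteins that bind microtubule plus ends. Its LSK levels were -4.66 and -4.92 on the wild-type arrays and -3.20, -3.21, -2.41 and -1.92 on the mutant arrays. In GMPs they were -6.01 and -6.05 against -3.18, -4.05, -2.92 and -4.79, with the Ezh2-/- and MDS/MPN arrays well above background and the other mutant arrays not. The differences were 2.11 in LSK cells and 2.29 in GMPs, and no wild-type array was well above background. The LSK difference corresponds to at least 2.62-fold. No bound is given for GMPs, where not all mutant arrays were well above background. Of 4 other probes, the best detected gave 2.40 and 0.60, 1 gave 2.58 and 1.59, and 2 were not well above background on any array. Of 7 plus-end genes tested, 0 passed (limma; 2 had an unadjusted p under 0.05), and the largest difference was -0.65 for Clip2 (SE 0.15, limma adjusted p = 0.219).

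Chn1 encodes a chimaerin, a phorbol ester-binding protein that switches off the GTPase Rac and is known from axon guidance. It was the least detected of the set, well above background on 2 of 12 arrays, the LSK arrays of MDS/MPN and RAEB. Its LSK levels were -6.06 and -6.0 on the wild-type arrays and -4.35, -4.42, -3.66 and -3.28 on the mutant arrays. In GMPs they were -6.13 and -5.92 against -4.90, -5.05, -4.71 and -4.96. The LSK difference was 2.11, with no bound, as the Ezh2-/- and double mutant arrays were not well above background. No fold is given for GMPs, where no array was well above background. A probe for another Chn1 transcript was not well above background on any array. Of 8 tested genes of chimaerins and Rac, 0 passed (limma; 1 had an unadjusted p under 0.05, the paralogue Chn2, at 0.39, SE 0.14, limma adjusted p = 0.468).

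Tulp4 is a distant member of the tubby family with a SOCS box, a motif of ubiquitin ligase adaptors. Its LSK levels were -5.74 and -5.91 against -2.72, -3.36, -3.32 and -2.91. In GMPs they were -5.99 and -6.08 against -3.63, -3.63, -4.60 and -4.55, and of these arrays the double mutant one was well above background. The differences were 2.75 in LSK cells, at least 1.9979-fold, and 1.93 in GMPs. No bound is given for GMPs, where most mutant arrays were not well above background. Of its 3 tested relatives, 0 passed (limma; 1 had an unadjusted p under 0.05, the photoreceptor gene Tulp1, at 0.42, SE 0.15, limma adjusted p = 0.468).

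Fam169a encodes a lamin-associated protein of the nucleus. In LSK cells it stood at -4.64 and -4.97 on the wild-type arrays and at -1.54, -1.88, -1.55 and -1.77 on the mutant arrays. In GMPs no array was well above background, with -6.29 and -6.34 against -3.84, -4.78, -5.55 and -5.95. The LSK arrays thus formed 2 groups set apart by 2.75, while the GMP values have no measured order. With the scanner's background correction, the LSK difference of 3.12 corresponds to at least 5.2-fold, the largest bound of the 10 genes. With normexp the mean difference over both cell types was 0.62, so the bound does not carry over to that setting. The GMP difference of means was 1.29, from arrays all not well above background, so no fold is given.

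Glcci1 was named as a transcript that glucocorticoids induce in thymocytes, which are themselves blood cells. It was well above background on all arrays, at -0.77 and -0.97 on the LSK wild-type arrays and 0.37, 0.53, 0.71 and 0.77 on the mutant arrays. In GMPs the values were -0.28 and -0.21 against 1.51, 1.49, 1.32 and 1.40. The arrays of a genotype lay close together, and the difference was 1.46 in LSK cells and 1.67 in GMPs, or 2.97-fold over both. Of its other probes, 1 gave 1.61 and 1.45, and the other, dimmer one gave 0.72 and -0.13. Of the 3 tested genes on the list for Fam169a and Glcci1, which holds Fam117a, Fam117b and Fam169b, 0 passed (limma; 0 had an unadjusted p under 0.05), with differences from -0.17 for Fam117a to 0.13 for Fam169b.

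**Figure D3:**
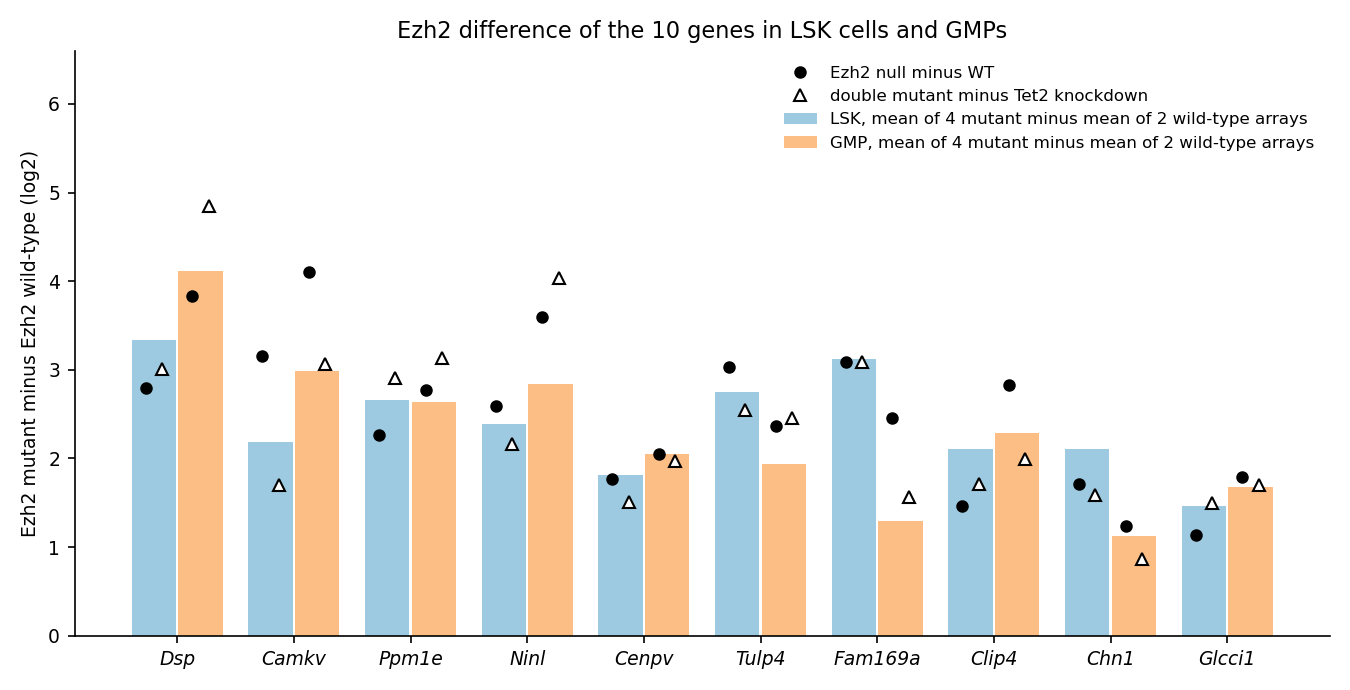
Log2 difference between Ezh2-mutant and Ezh2 wild-type arrays for each gene, in LSK cells (blue bars) and GMPs (orange bars). Circles and triangles are the matched single-array differences without disease, all above 0 through the choice of the genes. Dsp has the highest GMP bar at 4.12. The GMP bars of Chn1 and Fam169a rest on arrays that were all not well above background, and apart from Cenpv and Glcci1 every gene has at least 1 wild-type array not well above background, so the heights give no ranking.

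The families of the 10 genes held no further call. Of 99 relatives on 9 lists, 85 were tested on the 8 arrays without disease, and 0 passed at an adjusted p under 0.05 (limma; smallest adjusted p 0.0677, Pkp2). Over all genes, 0.168% passed as higher in Ezh2-mutant cells, 23 of 13712. Of the 85, 56 had a difference above 0 and the median was 0.08; of all genes, 49.1% were above 0. An unadjusted p under 0.05 was found for 12 of the 85 (14.1%) and for 8.78% of all genes.

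The Polycomb genes themselves were looked up on a list of 31, of which 30 were tested. Bmi1, a core subunit of Polycomb repressive complex 1, rose by 1.40 (SE 0.12, limma adjusted p = 0.0199). It was the single call among the 30, whose median difference was -0.01 and of which 5 had an unadjusted p under 0.05. Bmi1 was also among the 5 genes whose profile over the 12 arrays, centred within each cell type, was most like the mean of the 10. These were Spire1, an actin nucleator (Pearson's r 0.96), Bmi1 (0.96), the bone morphogenetic protein receptor gene Bmpr1a (0.96), and Echdc2 and Chchd7, both of mitochondrial proteins (0.95 each). The points share the step between Ezh2 genotypes that chose the 10 genes, so r describes likeness to that step. Of these 5, Bmpr1a had the largest differences, 4.65 in LSK cells and 4.89 in GMPs. It was well above background on 8 of the 12 arrays, so these sizes rest in part on signal not well above background. Spire1, well above background on all 12, had 1.5 and 1.65.

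Genes next to the 10 on the chromosome were taken by name from RefSeq's gene order as the nearest tested gene on each side. Of these 20 neighbours, 0 passed between Ezh2 genotypes (limma; 0 had an unadjusted p under 0.05, smallest adjusted p 0.576). Their median difference was 0.08 and their range -0.47, for Pigl beside Cenpv, to 1.1, for the receptor kinase gene Mst1r beside Camkv. Pigl and Mst1r were each well above background on 7 of the 12 arrays. Of the 20, 15 had a difference above 0, against 49.1% of all genes. Since 0.168% of all genes passed as higher, a count of 0 among 20 tells little about the neighbours.

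Markers of tissues in which several of the 10 genes are known were set beside them. Of 12 neuronal markers, 10 were not well above background on any array, among them Syn1, Syt1, Map2, Nefl and Rbfox3. The summed linear level of all 12, the 2 detected ones included, was lower in Ezh2-mutant than in wild-type LSK cells. The sums here cover all 12 arrays, diseased ones included. Bright probes weigh most in them, so the neuronal sum says little beyond the 2 detected genes. It was 18.1 to 25.6 times the 75th percentile against 26.9 to 34.7. In GMPs it was 16.1 to 24.3 against 23.9 to 24.0. Of 12 epithelial markers, 4 were never well above background (Krt19, Cldn3, Ocln and Grhl2); the sum was 28.8 to 42.7 against 40.9 to 61.7 in LSK cells and, in the other direction, 23.3 to 31.7 against 16.0 to 16.5 in GMPs. The largest single epithelial difference was that of Cldn7, 0.88 (SE 0.17, limma adjusted p = 0.167). Stromal and endothelial markers, of which Col1a1, Col3a1, Pdgfra and Cdh5 were never well above background, summed to 41.3 to 71.5 against 70.5 to 82.3 in LSK cells and 71.7 to 97.3 against 67.0 to 69.5 in GMPs. Alb, Apoa1 and Ttr, defining genes of liver, were never well above background; Afp differed by 0.89 (SE 0.29, limma adjusted p = 0.414). None of the tested markers of these lists passed between Ezh2 genotypes (7 epithelial, 2 neuronal, 8 stromal and 2 liver genes; 1, 0, 0 and 1 had an unadjusted p under 0.05).

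Among markers of blood lineages, those of neutrophils had the median difference of largest size between Ezh2 genotypes. All 7 had a difference below 0, with a median of -1.16; 0 passed (limma; 3 had an unadjusted p under 0.05), and Camp, at -1.72 (SE 0.45, limma adjusted p = 0.297), was the largest. Over the 12 arrays, diseased ones included, their summed level ran from 10.6 to 340 on mutant and 20.4 to 90.8 on wild-type LSK arrays, and from 28.4 to 700 against 31.2 to 45.2 in GMPs. The 4 megakaryocyte markers summed to 10.3 to 16.4 on mutant and 20.4 to 27.3 on wild-type LSK arrays and to 1.99 to 30.6 against 1.82 to 3.17 in GMPs; 0 passed (limma; 1 had an unadjusted p under 0.05, Itga2b at -0.86, SE 0.18, limma adjusted p = 0.193). None of the tested markers of B cells, T and NK cells, erythroid cells, monocytes, LSK cells and GMPs passed between Ezh2 genotypes either (limma; 0, 0, 0, 0, 2 and 0 had an unadjusted p under 0.05). The part of these shifts in the levels of the 10 genes was not tested.

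GMPs and LSK cells were then compared over all 12 arrays, with the 6 conditions as a block. This comparison played no part in the choice of the 10 genes. Of the 10, 8 passed (limma, adjusted p under 0.05): Dsp, Glcci1 and Cenpv were higher in GMPs, and Fam169a, Camkv, Clip4, Ninl and Tulp4 lower. After quantile normalization 4 of the 10 passed, and with normexp 5. The comparison moved much of the genome: 44.5% of all genes passed, 25.7% higher and 18.9% lower in GMPs. Fam169a and Chn1 were among the tested genes through LSK arrays alone, and Tulp4 with 1 GMP array, so their lower GMP level was favoured by the filter and the count of 8 is no result about the 10 as a set. Scaling bears on that split, because all genes together stood 0.16 higher in GMPs; after quantile normalization, which brought this shift to 0.01, 2631 genes passed as higher and 3106 as lower, in place of 3523 and 2585.

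Dsp stood 1.55 higher in GMPs (SE 0.29, limma adjusted p = 0.00371). It was higher by 1.01 to 2.67 in the 4 Ezh2-mutant conditions, where all arrays were well above background, and by 1.63 in WT, where the GMP array was. In Tet2KD/KD cells neither array was, so no difference was measured. Glcci1 was 0.76 higher (SE 0.13, limma adjusted p = 0.00228), in 6 of 6 conditions. Both passed in all 21 alternative settings. In this comparison these are not 21 separate tests, here and in the counts below. The value table repeats the main values, and leaving out either array of a condition gives the same fit. Cenpv was 0.52 higher (SE 0.16, limma adjusted p = 0.0278) in 5 of 6 conditions, with RAEB at -0.03. Its difference was 0.12 after quantile normalization, and it passed in 10 of 21 alternatives.

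Fam169a stood 2.73 lower in GMPs (-2.73, SE 0.40, limma adjusted p = 0.00114). It was well above background on the 4 Ezh2-mutant LSK arrays and on no other, so it was tested only because it was high in LSK cells, and the p is no independent support. In WT and Tet2KD/KD cells neither array was well above background and no difference was measured. The difference over all conditions includes these, so no fold is given for it. Camkv differed by -2.04 (SE 0.54, limma adjusted p = 0.0174), with 5 of 6 conditions below 0. RAEB gave -4.56 and MDS/MPN 0.28, so the diseased conditions lay at opposite ends. It passed in 19 of 21 alternatives.

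The other calls were less settled. Clip4 differed by -1.11 (SE 0.34, limma adjusted p = 0.0301) and passed in 12 of 21 alternatives, Ninl by -1.13 (SE 0.37, limma adjusted p = 0.0386) and passed in 7 of 21. Tulp4 differed by -0.75 (SE 0.23, limma adjusted p = 0.0285), passed in 12 of 20 and stood at 0.03 with normexp. Clip4, Ninl and Tulp4 were not well above background on any WT or Tet2KD/KD array, so no difference was measured in those conditions. Of the 4 Ezh2-mutant GMP arrays, 2, 3 and 1 were well above background, in the same order. The estimates and p-values of these genes include the values not well above background. Chn1, at -0.65 (SE 0.24, limma adjusted p = 0.0551), and Ppm1e, at -0.39 (SE 0.17, limma adjusted p = 0.0936), did not pass; with normexp Chn1 stood at 0.15. Without either WT array, 4 of the 10 passed, and without either MDS/MPN array, 5. The MDS/MPN and RAEB pairs did not share a slide between cell types. Nor did they share a sex pattern. The sex-linked gene Xist read 1.35 and 1.63 on their LSK arrays and -5.56 and -5.59 on their GMP arrays. Over the 8 arrays of slide 1 alone, 6 of the 10 passed.

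**Figure D4:**
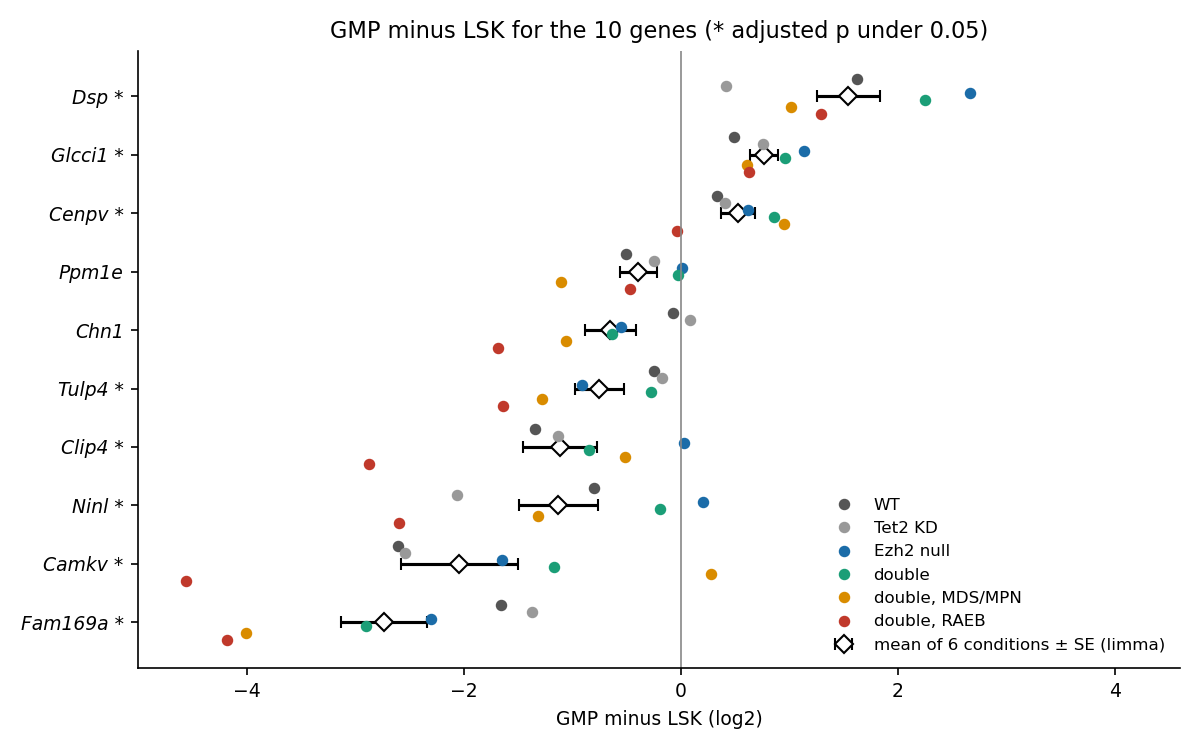
GMP minus LSK difference (log2) of each gene. Diamonds with bars are the limma estimate over 6 conditions ± SE, coloured points the single conditions, and asterisks mark an adjusted p under 0.05; Fam169a lies at -2.73 and Dsp at 1.55. Fam169a and Chn1 were not well above background on any GMP array, and points of conditions without a detected array are not measured differences.

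Whether the Ezh2 difference itself depended on the cell type was tested on the 8 arrays without disease. Cenpv and Glcci1 alone were well above background on all 8 arrays. For Cenpv the difference was 0.37 larger in GMPs (SE 0.23) and for Glcci1 0.42 larger (SE 0.24), each with a limma adjusted p of 1.00. For the other 8 genes the size and direction depend on arrays not well above background: Chn1 was so on all 8 arrays and Fam169a on all GMP arrays. None of the 10 passed, as none of all genes did (0%), while 802 of 13712 genes had an unadjusted p under 0.05, as did Dsp, Ninl, Fam169a and Chn1 of the 10.

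Tet2 knockdown was compared with Tet2 wild-type within each Ezh2 genotype and cell type, 4 arrays against 4. The differences of the 10 genes ran from -0.69 for Camkv to 0.22 for Dsp, with a median of -0.20 against 0.02 for all genes. None of the 10 passed (limma; smallest adjusted p 0.818), and neither did any other gene (0%); 1 of the 10, Ppm1e at -0.50 (SE 0.15, limma adjusted p = 0.818), and 788 of all genes had an unadjusted p under 0.05. Tet2 itself, at -1.92, did not pass either, so that the test left a known difference of that size uncalled.

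The Ezh2 difference was also compared between Tet2 genotypes. None of the 10 passed in this interaction (limma; smallest adjusted p 0.956, 0 with an unadjusted p under 0.05, against 707 of all genes), and their estimates ran from -1.25 for Camkv to 0.62 for Dsp. Of all genes 0.0365% passed, 5 genes, of which Xist, Eif2s3y, Ddx3y and Uty are linked to sex. Xist stood at 2.57 and 2.52 on the WT and double mutant LSK arrays and at -5.95 and -6.15 on the Tet2KD/KD and Ezh2-/- ones, and the GMP arrays had the same order. The sex pattern of the arrays and the interaction of the genotypes are thus the same contrast and cannot be told apart.

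The 4 diseased arrays are among the Ezh2-mutant arrays on which the 10 genes were chosen, so their order above the wild-type arrays is part of the choice. They were therefore set against the double mutant without disease. In LSK cells, 8 of 10 were higher in MDS/MPN and 10 of 10 in RAEB than in the double mutant without disease. Of all genes tested, 59.3% and 62.3% were. The median differences of the 10 were 0.28 and 0.37 (all genes 0.12 and 0.16), and all 10 were well above background on both arrays. In GMPs, 4 of 10 were higher in MDS/MPN and 1 of 10, Chn1, in RAEB, against 67.0% and 49.2% of all genes tested. The medians of the 10 were -0.36 and -0.70 (all genes 0.23 and -0.01). Of the 10, 7 were well above background in GMPs of MDS/MPN and 4 in GMPs of RAEB, against 7 in the double mutant without disease. These are differences between single arrays, and the GMP counts and medians include values not well above background, Chn1 and Fam169a among them.

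Clip4 and Chn1 stood furthest above the double mutant in LSK cells, by 1.29 and 1.14 in RAEB and 0.80 and 0.76 in MDS/MPN. Chn1 was not well above background in the double mutant. It was among the tested genes through the LSK arrays of MDS/MPN and RAEB alone. Its rise there and its place in the LSK counts above were thus favoured by the filter. Camkv and Ninl lay furthest below it in GMPs of RAEB, at -2.49 and -2.39, where both were not well above background. Glcci1 and Cenpv, the well detected genes, moved little, between -0.17 and 0.24 and between -0.40 and 0.49 over the 4 arrays.

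**Figure D5:**
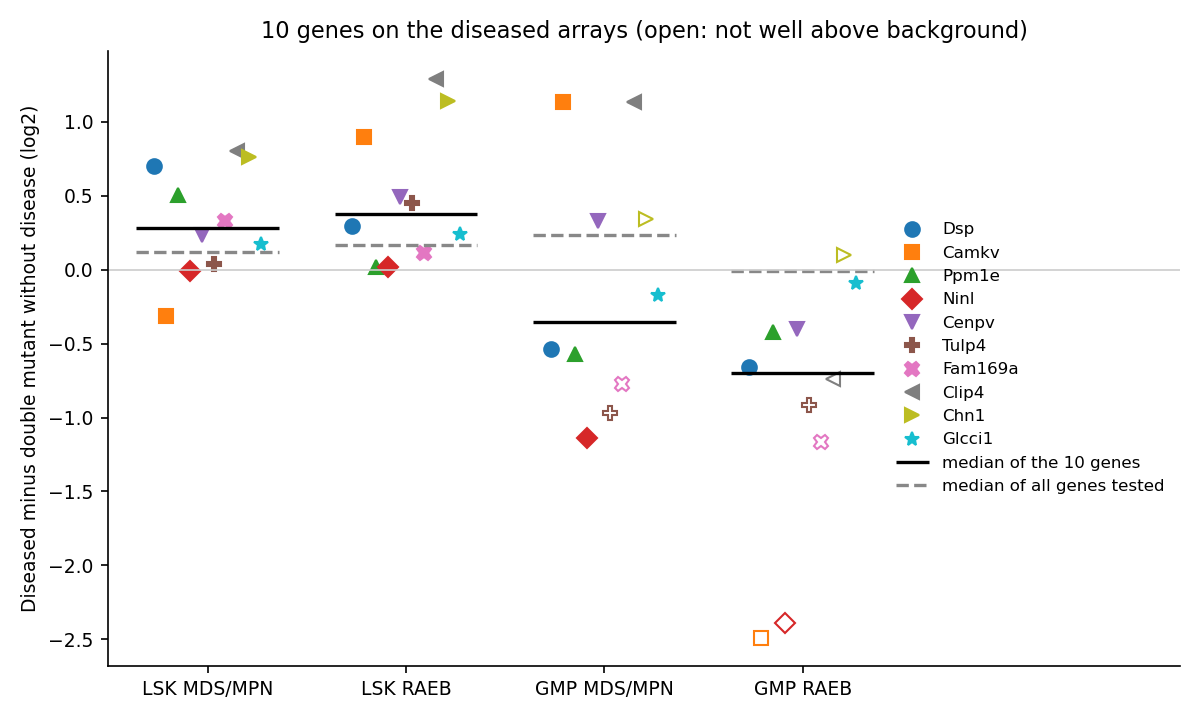
Level of each gene on the 4 diseased arrays minus that on the double mutant array without disease of the same cell type (log2). Open symbols lie not well above background, the solid line is the median of the 10 genes and the dashed line that of all genes tested; the solid line is above the dashed one in LSK cells (0.28 and 0.37) and below it in GMPs (-0.36 and -0.70).

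Over both cell types none of the 10 passed between diseased and other double mutants (limma; smallest adjusted p 0.49, 0 with an unadjusted p under 0.05, against 1883 of all genes), where 0.00729% of all genes passed, the single gene Bst1. None passed between RAEB and MDS/MPN (limma; smallest adjusted p 0.974, 0 with an unadjusted p under 0.05, against 365 of all genes), where no gene did (0%). Without the LSK array of RAEB, 20 genes passed as higher and 2 as lower in disease, and 95 as higher and 269 as lower in RAEB than MDS/MPN, and still 0 of the 10 passed. The fitted differences between disease and other double mutants average the cell types, which for Ninl gave -0.88 (SE 0.55) and for Clip4 0.62 (SE 0.51). Disease and slide cannot be told apart, since slide 1 held the 8 arrays without disease, slide 2 MDS/MPN and RAEB of LSK cells and slide 3 those of GMPs. The sex-linked genes differed too: Xist read 1.35 and 1.63 on the diseased LSK arrays and -5.56 and -5.59 on the diseased GMP arrays.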

How the data were processed

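Per the labels, total RNA was labelled with Cy3 and hybridised to one-colour Agilent arrays; per the file headers, the deposited files come from Feature Extraction 10.7.1.1. The deposited processed signal is an intensity, linear and with background removed, and the deposited flags (outlier, saturated, well above background, control) are of another unit. At all 62976 spots the authors' value table gives that same intensity, so it is linear and not centred. Here, log2 of the processed signal was taken minus log2 of the array's 75th percentile over gene spots; flagged outlier spots were dropped and spots of a probe averaged. Of 55681 gene probes, 26762 had 1 symbol, 0 several and 28919 none, through unversioned RefSeq accessions (GRCm38.p6, names only, as the headers name another build). The brightest probe stood for a gene; genes well above background on at least 2 of 12 arrays were tested with limma 3.58.1 (R 4.3.3; lmFit, eBayes, two-sided, Benjamini-Hochberg over 13712 genes). For 4 contrasts the fit used the 8 non-diseased arrays (terms: cell type, genotypes); for the other 3, all 12 with cell type and condition. Limma scripts were tested on simulated data. The members and lists were chosen with earlier results of these data known. Named are all 10 genes, Tet2 and Ezh2; from each list up to 4 calls or the 2 largest differences at most; and the 5 most similar genes. Alternatives were quantile normalization, normexp (offset 50, on median in place of mean signals), the value table, the mean of probes, no filter or 6 arrays, limma's trend and robust options, slide as a random block, other sets of arrays and leaving out each array. The number of arrays limits precision.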

Additional observations from a re-analysis of the deposited data

How the results depend on the processing

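Of the 10 genes, 8 passed between GMPs and LSK cells; 4 did with quantile normalization and 5 with normexp background correction, and leaving out each array in turn gave 4 to 7. With normexp, Tulp4 stood at 0.032 and Chn1 at 0.15 in place of values below 0. The median Ezh2 difference of 2.27 became 0.84 with normexp and otherwise lay between 2.07 and 2.57. In the 5 other comparisons 0 of the 10 passed in any alternative, with smallest limma adjusted p values of 0.63 (Tet2), 0.667 (interaction), 0.089 (Ezh2 by cell type), 0.18 (disease) and 0.0786 (RAEB against MDS/MPN). Where a left-out array left 1 alone in a group, it was assumed to vary like the others. Signal over background limits Chn1, and Fam169a, Tulp4 and Clip4 in GMPs. The cause of the other changes was not tested.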
